A study of Mus musculus with 2 samples.

Results

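Oxidative phosphorylation is the last stage of fuel burning in mitochondria. Complexes I and II pass electrons from nutrients to ubiquinone, complex III hands them to cytochrome c, complex IV delivers them to oxygen, and complex V, the ATP synthase, uses the proton gradient built by complexes I, III and IV to make ATP. Kidney tubule cells, above all those of the proximal tubule, are packed with mitochondria and depend on this pathway for reabsorption, while glomerular cells hold fewer. The genes described here are the nuclear genes of these 5 complexes and of cytochrome c. They were chosen by symbol: names that start with Nduf, Uqcr, Atp5 or Cox4 to Cox8, together with Sdha, Sdhb, Sdhc, Sdhd, Cycs and Cyc1, and without Cox7a1 and Cox8b.

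The rule found 93 genes with a probe among 20017 named genes on the array. Complex I had 46 of them, complex II 4, complex III 9, complex IV 16 and complex V 17, and Cycs stood by itself. The complex I count follows the symbol and so includes 8 assembly factors, which build the complex without staying in it, Ndufa4, which later structural work placed in complex IV, and its relative Ndufa4l2. In all, 91 members were well above background on both arrays. The exceptions were Cox7b2 and Cox8c, described with the tissue-restricted isoforms. A further 22 symbols of the rule had no named probe, of which 19 were pseudogenes and 3 were the coding genes Ndufb1, Ndufb4b and Ndufb4c. Probe sequences are not in the files used here, so it could not be assessed whether a probe also reads such a copy.

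RNA came from dissected glomerular regions of kidneys from male mice on the C57BL/6J background, all diabetic and killed at 32 weeks of age. All had been given streptozotocin (STZ), which destroys the insulin-producing cells of the pancreas, in 100 mmol/l citrate buffer at 8 weeks. The WT+STZ group was wild type, and the TG+STZ group was labelled as transgenic and overexpressing Sirt1, a deacetylase that uses NAD. Each group was read on 1 single-colour array. The promoter of the transgene and the number of mice behind each array are not given in the sources used here, and no nondiabetic array was analysed. With 1 array a group there is no replicate check and no test between groups, so every difference below compares 2 arrays and not 2 genotypes.

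Signals, their medians and their sums are processed intensities in scanner units, not scaled between the arrays, and a gene with several probes is given by their mean. Differences are log2 values of TG+STZ minus those of WT+STZ, after each array was divided by the 75th percentile of its gene spots (1933 and 2042 units). The value after ± is the scanner software's own error for both arrays. It was 0.20 for a member with 1 probe, smaller with more probes, and covers neither mice nor dissections. Of 43020 gene spots, 75.04% and 76.26% were well above background and 0 were saturated. Sirt1 read 2625 units in WT+STZ against 2977 in TG+STZ, a difference of 0.10 ± 0.20 from 1 probe. Whether this probe reads the transgene is not given, so it does not check the labels. Markers set the tissue: all 8 podocyte markers were well above background with a median signal of 1368 and 1320 units, and all 12 proximal tubule markers had a median of 119791 and 136765. The RNA therefore held tubule transcripts, and in such bulk tissue fewer cells of a type and less RNA per cell cannot be told apart.

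Oxidative phosphorylation genes were among the brightest on both arrays and stood slightly higher on the TG+STZ array. Of the 91 measured, 82 were higher and 9 lower, with a median difference of 0.067, or 4.73% more signal. Over all 15975 genes measured, 50.9% were higher and 49.1% lower, with a median of 0.003. The members differed little from each other: 87 of 91 lay within 0.2 of 0, and their SD was 0.093 against 0.26 for all genes. Other scalings moved the split: 71 of 91 were higher with the percentile taken over detected probes, 69 after quantile normalization and 65 after a loess correction for signal.

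Single members rarely passed the scanner's error. Cycs, Cox7c, Ndufaf4 and Ndufa4l2 were higher by more than it (4.4% of members), and 10.4% of all genes were. Cox4i2 and Cox6a2 were lower by more than it (2.2%), against 13.3% of all genes. These calls depend on the number of probes. Cox7c (0.15, 3 probes) and Ndufaf4 (0.19, 2 probes) passed their smaller errors but lay under the 0.20 of a member with 1 probe. With the brightest probe of each gene, 2 members were higher by more than their error and 3 lower. The other 85 members each lay within their own error. None of the 91 reached 2-fold, against 0.989% of all genes, in either direction. This count depends on the rule, which leaves out the complex IV gene Cox8b, at a difference of 2.93.

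Bright genes in general were higher on the TG+STZ array. When all genes were sorted by signal into 10 bins of equal size, the median difference went from -0.060 in the dimmest bin to 0.044 in the brightest 10%, where 71% of 1598 genes were higher. That bin held 75 of the 91 members, and 72 of these 75 were higher, with a median of 0.067. The other 1523 genes of the same bin had a median of 0.043, and 69.7% of them were higher. The members were packed more tightly, from -0.030 to 0.156 with an SD of 0.041, against 0.18 for the other genes. None of the 75 passed the scanner's error in either direction, against 10.1% higher and 4.01% lower of the whole bin, and none reached 2-fold, against 0.375% of it. Cycs and Cox7c, which passed their error, were sorted outside the bin, because genes were ranked by the mean of log2 values and each has 1 dim probe (303 and 259 units on the WT+STZ array) beside bright ones. The bin did not match members and other genes on signal: their median signals in WT+STZ were 79486 and 26674 units. In the brightest 1% of genes, 21 members had a median of 0.034, an SD of 0.030 and 90.5% higher. The other 139 genes there had a median of 0.031, an SD of 0.11 and 64.7% higher. The RNA spike-ins, control probes of the array, were below 0 at the bright end: the probes E1A_r60_a97, E1A_r60_n11, E1A_r60_n9 and E1A_r60_1, at 12353 to 383218 units in WT+STZ, stood at -0.013, -0.020, -0.021 and -0.038. The dimmer detected ones, E1A_r60_a107, E1A_r60_a135, E1A_r60_a20 and E1A_r60_a22, at 47.7 to 3055 units, stood at 0.048, -0.040, -0.026 and -0.053. The part of the signal trend in the members' shift was not tested. After loess the members' median was 0.029 and that of the brightest 10% of genes 0.006. Quantile normalization gave 0.037 and 0.003. Relative to the median of the brightest 10%, a setting chosen after seeing the data, 58 of 91 members were higher, with a median of 0.023. By construction 50% of that bin was higher there, and 37.1% of all genes were.

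**Figure D1:**
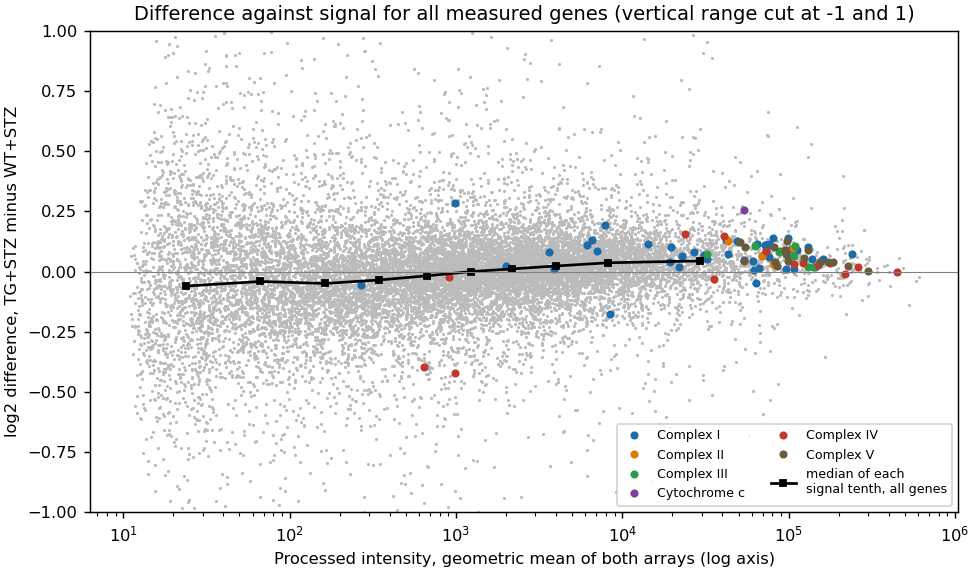
Log2 difference between the arrays (TG+STZ minus WT+STZ) against processed intensity on a log axis, for all measured genes (grey) and the 91 measured oxidative phosphorylation genes (coloured by complex); black squares are the medians of the 10 signal bins. Most coloured points lie at the bright end, just above 0, where the black line reaches 0.044; Cox4i2 and Cox6a2 lie lowest among them, near -0.4.

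By complex, the median difference was 0.082 for complex II, 0.074 for complexes I and III, 0.045 for complex V and 0.023 for complex IV, the last turning to -0.001 under normexp background correction and to -0.007 after loess. Complexes II, III and V had every measured member higher (4 of 4, 9 of 9 and 17 of 17), complex I had 43 of 46 and complex IV 8 of 14. These counts stand against 50.9% higher over all genes, and against 71% with a median of 0.044 in the brightest signal bin. Relative to that bin's median, a setting chosen after seeing the data, complexes I, II and III stood at 0.029, 0.038 and 0.029. Complexes IV and V stood there at -0.021 and 0.0013. The medians of complexes II and IV were 0.06 apart, which is under the error of a single probe. Median signals in WT+STZ and TG+STZ were 59192 and 63654 units for complex I, 71713 and 78285 for complex II, 92805 and 102673 for complex III, 86424 and 94786 for complex IV, and 91887 and 103022 for complex V. Probes differ in how well they bind, so these medians describe spot brightness and are not amounts of one complex against another.

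Complex I, the NADH dehydrogenase, has a catalytic core of which 7 subunits are encoded in the nucleus. All 7 were higher, with a median of 0.10, against 71% higher in the brightest signal bin. Ndufs3 read 71769 units for WT+STZ and 82021 for TG+STZ, a difference of 0.11, and Ndufs1, which carries iron-sulfur clusters of the electron path, read 71272 and 81354, also 0.11. Ndufv1, which binds NADH and flavin at the entry of the path, went from 123472 to 140015 units, a difference of 0.10. Ndufs8 read 18361 and 20822 units (0.10) and Ndufs7 69350 and 78017 (0.091). Ndufv2 stood lower at 0.046, with 58274 and 63522 units. No core subunit passed its scanner error of 0.20.

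The 29 accessory subunits, which surround and stabilise the core, had a median of 0.069. Of these, 28 were higher, against 71% of genes in the brightest signal bin. Ndufa2 was highest, with 92105 and 107075 units and a difference of 0.14. Ndufb2 and Ndufb3 of the membrane arm followed at 0.13 each. Ndufa13 was the brightest member of the complex at 227648 and 253173 units, a difference of 0.075. At the lower end Ndufs5 stood at 0.005, with 60172 and 63785 units. Ndufb11 was the accessory subunit below 0, at -0.048 ± 0.14, from a bright probe near 0 and a probe of 476 and 471 units at -0.095. Ndufa4 read 75003 units in WT+STZ against 87198 in TG+STZ, a difference of 0.14.

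The 8 complex I assembly factors of the Ndufaf family were dimmer and less uniform, from -0.18 to 0.19 with a median of 0.054. Ndufaf4 read 7199 units for WT+STZ and 8690 for TG+STZ, a difference of 0.19 ± 0.14, with its probes at 0.15 and 0.24. Ndufaf2 stood at 0.13. Ndufaf7, a methyltransferase that modifies a core subunit, was lowest at -0.18 ± 0.20, with 8704 and 8135 units. Ndufaf5 was the dimmest measured member, at 285 and 255 units, and its probes pointed in opposite directions at -0.26 and 0.15. Complex I assembly factors that the symbol rule does not take were all higher, 7 of 7 against 50.9% of all genes, with a median of 0.17. They included Nubpl at 0.23 ± 0.14, Tmem186 at 0.21, Foxred1 at 0.19 and Acad9, which is related to the acyl-CoA dehydrogenases, at 0.17. Tmem126b, Ecsit and Timmdc1 were lowest at 0.10, 0.091 and 0.017. Nubpl and Tmem186 were higher by more than their error, as were 10.4% of all genes.

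**Figure D2:**
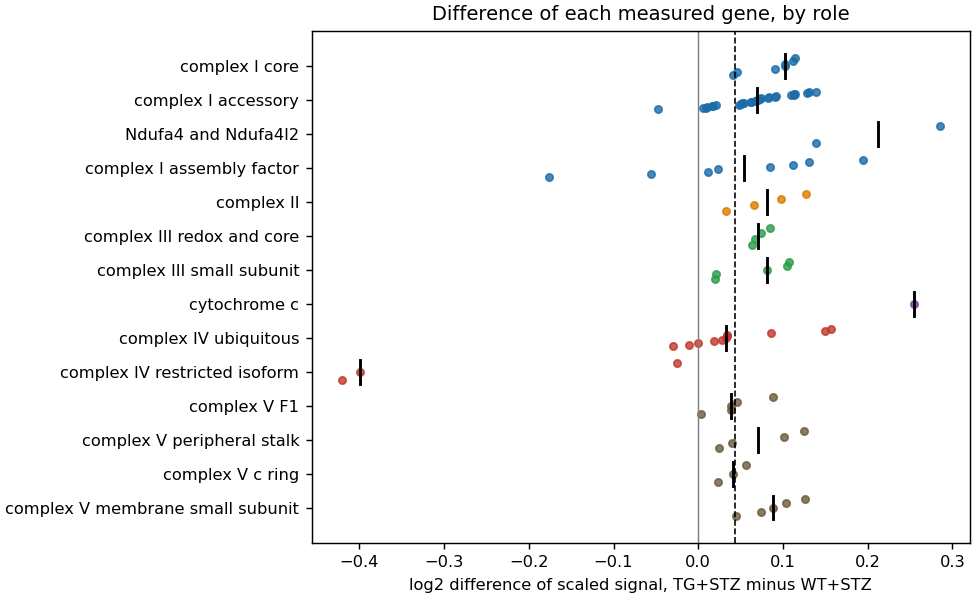
Log2 difference between the arrays for each measured gene (points), grouped by role, with a black bar at each group's median; the dashed line is the median of the other genes in the brightest 10% (0.043) and the grey line is 0. Core subunits of complex I and all of complexes II and III lie above 0, Cycs stands apart at 0.25, and the restricted complex IV isoforms Cox4i2 and Cox6a2 lie near -0.4.

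Complex II, succinate dehydrogenase, is shared with the citric acid cycle and pumps no protons. Sdha, the flavoprotein that oxidises succinate, read 65796 units in WT+STZ against 72721 in TG+STZ, a difference of 0.066. Sdhb, the iron-sulfur subunit, read 100187 and 112282 units, a difference of 0.098 ± 0.14, with probes at 0.074 and 0.12. The membrane anchors were the highest and the lowest of the complex. Sdhc read 40474 and 46620 units, a difference of 0.13 ± 0.14, with probes at 0.082 and 0.17. Sdhd read 77630 and 83850 units, a difference of 0.032. Against 71% of genes in the brightest signal bin, all 6 probes of the complex were higher on the TG+STZ array. Its assembly factors had a median of 0.054, with Sdhaf4 at 0.13, Sdhaf3 at 0.073, Sdhaf2 at 0.036 and Sdhaf1 at -0.021.

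In complex III, which passes electrons from ubiquinol to cytochrome c, the 9 members lay between 0.020 and 0.11. The Rieske iron-sulfur protein gene Uqcrfs1 read 84472 units for WT+STZ and 94575 for TG+STZ, a difference of 0.084, and Cyc1, which encodes cytochrome c1, read 102650 and 113306 units, a difference of 0.064. The core protein gene Uqcrc1 read 30563 and 33965 units, a difference of 0.074. Uqcrc2, the other core protein gene, was spotted 10 times on each array and so shows the technical spread of a single probe. Before scaling, its spots read 89090 to 95023 units in WT+STZ and 98775 to 104876 in TG+STZ. These readings include the offset between the whole arrays, a log2 difference of 0.079 between their 75th percentiles. The scaled differences of the 10 spots ran from 0.022 to 0.11, with a mean of 0.067 and an SD of 0.024. Repeat spots thus scattered far less than the scanner error of 0.20. Over 323 probes with at least 5 usable spots the median SD was 0.034.

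Among the small subunits of complex III, Uqcrq read 103468 and 116542 units, a difference of 0.11 ± 0.14, and Uqcrb, which lies near a ubiquinone site, read 58638 and 66502, a difference of 0.11 ± 0.12. Uqcr10 had 83387 and 92968 units, a difference of 0.082 ± 0.12. Its 3 probes stood at 0.059 to 0.10. Uqcrh and Uqcr11 were brightest in WT+STZ, at 135006 and 126771 units, and moved least, by 0.020 ± 0.14 and 0.020. Of the assembly factors of this complex, 5 were measured, with a median of 0.023 that turned to -0.0077 without the filter on dim probes: Uqcc2 at 0.11, Uqcc3 at 0.090, Ttc19 at 0.023, Bcs1l at -0.038 and Uqcc1 at -0.051.

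Cycs, which encodes the cytochrome c of somatic cells, had the largest difference after Ndufa4l2 among the members that were higher. Its 3 probes read 303, 37829 and 104007 units in WT+STZ and 360, 50092 and 131935 in TG+STZ. Each was higher on the TG+STZ array, by 0.17, 0.33 and 0.26. The mean was 0.25 ± 0.12, or 19.3% more signal. Cycs stayed between 0.21 and 0.33 under the settings tried, loess (0.24) and quantile normalization (0.24) included. Cytochrome c shuttles electrons between complexes III and IV and also triggers the apoptosome when it leaves mitochondria.

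Complex IV, cytochrome c oxidase, has ubiquitous subunits and isoforms that are made mainly in lung, muscle or testis. The 11 ubiquitous members had a median of 0.033. Cox7c read 37535 units in WT+STZ against 44311 in TG+STZ, a difference of 0.15 ± 0.12, with 3 probes from 0.12 to 0.20. Cox6b1, which links the monomers of the dimeric enzyme, read 22110 and 26024, a difference of 0.16 ± 0.20. Cox7a2 followed at 0.086, with 69366 and 77748 units. Cox5a and Cox5b, at 171579 and 117017 units in WT+STZ, both stood at 0.034, Cox7b at 0.033 and Cox6c at 0.028.

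The brightest subunits of complex IV were nearly equal on both arrays. Cox6a1 was the brightest member of all, at 435605 and 460045 units, and its scaled difference was 0.00. Cox8a read 253164 and 270263 units (0.019 ± 0.14, probes at -0.003 and 0.040), and Cox4i1, whose product binds ATP as an allosteric inhibitor, read 213412 and 223730 (-0.011). Cox7a2l, which helps complexes III and IV associate, stood at -0.030 ± 0.12, with 34563 and 36220 units and probes from -0.080 to 0.012. Over the 79 measured members that are neither assembly factors, Ndufa4l2 nor restricted isoforms, difference and signal had a Spearman correlation of -0.37 and a Pearson correlation of -0.33. These describe genes read on the same pair of arrays, and the sign depended on the genes taken. Over all 91 the Spearman and Pearson correlations were -0.17 and 0.26, within complex IV 0.21 and 0.63, within complex V -0.51 and -0.60, and within complex I 0.025 and 0.075. The 10 of them above 150000 units in WT+STZ had a median of 0.029, and the other 69 a median of 0.074.

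Among the tissue-restricted isoforms of complex IV, Cox6a2 and Cox4i2 were lower by more than the scanner error. Cox6a2, the heart and skeletal muscle form of subunit 6a, read 1107 units for WT+STZ and 873 for TG+STZ, a difference of -0.42 ± 0.20. Cox4i2, the oxygen-responsive lung form of subunit 4, read 716 and 573 units, a difference of -0.40 ± 0.20. Cox6b2, a testis form, read 888 and 922 units (-0.025 ± 0.20), and its sign differed between settings, from -0.069 to 0.054. Cox7b2 (4.55 and 5.51 units) and Cox8c (2.38 and 2.14 units), both known from testis, were not well above background on either array. The low values of Cox6a2 and Cox4i2 each rest on a single probe and ranged from -0.46 to -0.34 and from -0.44 to -0.32 over the settings tried. Ndufa4l2, a relative of Ndufa4 that is induced by hypoxia, also rested on 1 probe and was higher, from 872 to 1123 units, by 0.28 ± 0.20.

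Some markers of muscle-type cells were lower in the same samples. Of 6 striated muscle markers, Acta1 (201 and 150 units, -0.51) and Tnnt3 (19.3 and 13.8 units, -0.57) were measured and lower, although the median of the list turned to 0.24 without the filter on dim probes. Ckm, Myh4, Mylpf and Myl1 were at 2.27 to 2.74 units in WT+STZ and 2.77 to 7.33 in TG+STZ, not above background on both arrays, and the summed signal of the list was 225 and 178 units. Of 6 mesangial and smooth muscle markers 5 were lower, with a median of -0.10 and a summed signal of 26665 and 25445 units. Acta2 at -0.35 and Myh11 at -0.27 passed their error, and Itga8 stood at 0.15. Their part in the values of Cox6a2 and Cox4i2 was not tested.

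Complex V was even, with all 17 members between 0.003 and 0.13. Its median of 0.045 was close to the 0.044 of the brightest signal bin. The catalytic F1 head had a median of 0.039 over 5 genes. Atp5b, the beta subunit that forms ATP, read 291357 units in WT+STZ against 308353 in TG+STZ, a difference of 0.003. Atp5a1, the alpha subunit, read 176931 and 191998 (0.039), and Atp5c1, the gamma subunit that turns inside the head, read 79486 and 86544 (0.039 ± 0.14). Atp5d stood at 0.045 and Atp5e at 0.088.

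The c subunit that forms the rotating ring is encoded by 3 genes. Atp5g1 read 165887 and 180306 units (0.041), Atp5g2 118546 and 129995 (0.057 ± 0.14) and Atp5g3 219873 and 236064 (0.024). In the peripheral stalk, which holds the head still, Atp5pb read 47856 and 55119 units (0.12 ± 0.14) and Atp5o 51154 and 57973 (0.10), while Atp5h and Atp5j stood at 0.040 and 0.025. The small membrane subunits had a median of 0.088, with Atp5k highest at 91154 and 105030 units (0.13 ± 0.14), Atp5mpl at 0.10, Atp5j2 at 0.088, Atp5md at 0.074 and Atp5l at 0.045 ± 0.091. The 5 probes of Atp5l ran from 0.003 to 0.071. Of the assembly factors and the inhibitor of complex V, Atpaf1 stood at 0.091 ± 0.22 (54.2 and 61.0 units), Atpif1 at 0.063, Tmem70 at 0.063 and Atpaf2 at 0.025, all 4 higher.

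Separate probes of a member mostly lay on the same side of 0. Of 25 members with several measured probes, 5 had probes on opposite sides of 0, against 1470 of 4153 such genes overall. The median gap between the highest and the lowest probe was 0.067, as large as the members' median difference, against 0.092 for all such genes. Among the members Ndufaf5 alone had a gap over 0.3, against 499 of the 4153 genes.

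Except for the assembly factors of complexes I (0.17) and III (0.023), the other mitochondrial lists had medians near that of the members. The counts of all these lists stand against 50.9% higher over all genes. As many of the listed genes are bright, they also stand against 71% higher with a median of 0.044 in the brightest 10%. Citric acid cycle and pyruvate dehydrogenase genes, which feed the chain, had a median of 0.067 with 16 of 18 higher and a median signal of 35397 and 37940 units. Pdhx, Dlat and Fh1 were highest at 0.19, 0.14 and 0.11, and Idh2, Suclg2 and Ogdh lowest at 0.011, -0.030 and -0.15 ± 0.12. Of the 22 measured assembly factors of complex IV 18 were higher, with a median of 0.056. Cox17, a copper chaperone, was highest at 0.54 ± 0.35 but read only 16.8 and 25.8 units, followed by Cmc1 at 0.21 and Higd1a at 0.17. Cox10, Coa5 and Fastk, each between -0.034 and -0.028, were lowest.

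Among 12 carriers and other electron donors, 9 were higher, with a median of 0.062. Etfdh, which passes electrons from fatty acid oxidation to ubiquinone, stood at 0.17, Vdac2 of the outer membrane at 0.14 and Etfa at 0.10. Slc25a4, Slc25a3, the phosphate carrier, and Chchd2 were lowest at -0.004, -0.023 and -0.048. Genes of coenzyme Q synthesis had a median of 0.063, with 12 of 13 higher. Coq8b and Coq10b stood at 0.22 each, Pdss1 at 0.18, and Coq8a apart at -0.33 ± 0.14, with 4788 and 3945 units; Coq5 (at 0) and Coq4 (0.044) were next lowest. The subunits encoded in the mitochondrial genome had 0 probes named through the accession table and were not analysed here.

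**Figure D3:**
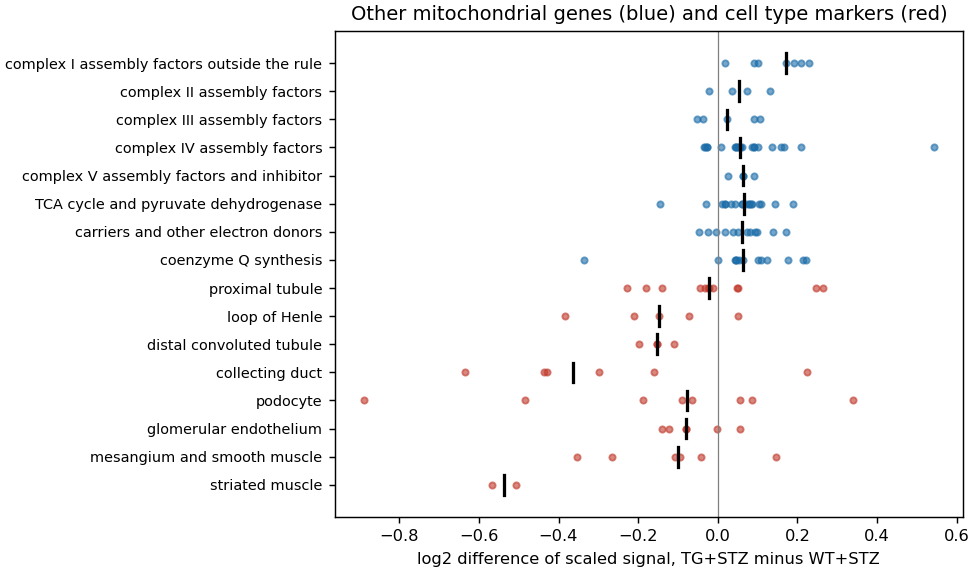
Log2 difference between the arrays for the measured genes of other mitochondrial lists (blue points) and of cell type marker lists (red points), with a black bar at each list's median; fat cell lists are left out because their values run far beyond the axis. The mitochondrial lists have medians from 0.023 to 0.17, all above 0, while the medians of the marker lists of kidney cells run from -0.36 to -0.023.

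Tubule markers did not move with the respiratory genes as a block. Of 12 proximal tubule markers 4 were higher and 8 lower, with a median of -0.023 (0.00073 with median scaling). Their summed signal, before scaling, was 2275940 and 2359420 units, where the 75th percentiles of the arrays were 1933 and 2042. Slc22a6 and Slc5a12 were highest at 0.26 and 0.25 ± 0.14, and Gatm, a mitochondrial enzyme of creatine synthesis, lowest at -0.23. Loop of Henle and distal convoluted tubule markers had medians of -0.15 each, with 4 of 5 and 4 of 4 lower. Collecting duct markers had a median of -0.36 with 5 of 6 lower, and podocyte markers one of -0.078 with 5 of 8 lower. The part of tubule content in the respiratory gene values was not tested.

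Promoters were examined because most members stood on the same side of 0. RefSeq windows of build GRCm38.p6, from 250 bases before to 50 after the gene start, were at hand for 75 of the 93 members. They were searched on both strands for letters tied to known regulators of respiratory genes: for NRF1, GCGCA, then any base, then GCGC; for GABPA (NRF2), CCGGAAG; and for YY1, AAGATGGCG. The last letters of the GABPA search are the first of the YY1 search, so these matches can overlap. The NRF1 letters occurred in 19 of the 75 members (25.3%), in 5.19% of 27025 genes with a window and in 13.2% of those in the brightest 10% by signal. The GABPA letters occurred in 19 members (25.3%), 9.93% of all genes and 21% of the bright genes, and the YY1 letters in 8 members, 1.64% of all genes and 3.71% of the bright genes. Members with the NRF1 letters had a median difference of 0.049 and those without of 0.073, with ranges that overlap (-0.055 to 0.19 and -0.18 to 0.25). The gap was smaller for the GABPA letters (0.062 with and 0.067 without) and the YY1 letters (0.061 with and 0.066 without). A match is a description of letters and shows no binding.

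The 250 bases upstream of the gene start are shown for 4 members: Cycs, Cox6b1 and Ndufaf4, the highest carrier, complex IV member and assembly factor, and Cox6a1, the brightest member with no difference between the arrays. They are written 5′ to 3′ on the gene's strand, with the searched letters in capitals. Cycs lies on the minus strand (chr6:50566570-50566819), Cox6b1 on the minus strand (chr7:30626115-30626364), Ndufaf4 on the plus strand (chr4:24897833-24898082) and Cox6a1 on the minus strand (chr5:115348959-115349208).
Cycs: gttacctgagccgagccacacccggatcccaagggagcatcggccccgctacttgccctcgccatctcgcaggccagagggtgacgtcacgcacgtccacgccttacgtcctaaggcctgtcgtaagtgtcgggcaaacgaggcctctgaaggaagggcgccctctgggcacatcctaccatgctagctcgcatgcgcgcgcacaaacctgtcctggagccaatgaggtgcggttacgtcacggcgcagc
Cox6b1: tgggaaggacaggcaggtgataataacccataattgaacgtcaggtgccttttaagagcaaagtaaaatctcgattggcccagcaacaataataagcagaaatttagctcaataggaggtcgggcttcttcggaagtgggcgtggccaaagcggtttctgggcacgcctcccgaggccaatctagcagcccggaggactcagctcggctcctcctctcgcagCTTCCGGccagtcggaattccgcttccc
Ndufaf4: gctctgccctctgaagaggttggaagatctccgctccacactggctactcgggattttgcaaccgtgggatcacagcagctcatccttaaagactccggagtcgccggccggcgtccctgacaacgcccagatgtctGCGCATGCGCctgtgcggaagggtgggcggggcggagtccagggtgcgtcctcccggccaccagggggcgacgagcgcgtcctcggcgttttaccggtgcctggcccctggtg
Cox6a1: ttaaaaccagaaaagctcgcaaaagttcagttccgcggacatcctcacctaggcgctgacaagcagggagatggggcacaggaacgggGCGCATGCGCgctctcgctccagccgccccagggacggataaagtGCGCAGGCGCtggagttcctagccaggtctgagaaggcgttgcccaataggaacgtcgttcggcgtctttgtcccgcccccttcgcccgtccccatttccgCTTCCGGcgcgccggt
The Cycs window holds none of the searched letters, Cox6b1 has a GABPA match, Ndufaf4 an NRF1 match, and Cox6a1 has both kinds.

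Across processing settings, the level of the complex medians moved, and their order changed under some settings. Under quantile normalization the medians of complexes I, II, III, IV and V were 0.041, 0.042, 0.031, 0.001 and 0.046, which puts complex V highest. After loess they were 0.037, 0.045, 0.032, -0.007 and 0.010, lower than reported but in the same order. Complex IV had the lowest median under each setting run, while the medians of complexes I, II and III stayed within 0.05 of each other.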

How the data were processed

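RNA of 1 WT+STZ and 1 TG+STZ sample was labelled with Cy3 and read on Agilent mouse arrays. Per the file headers, the authors used Agilent Feature Extraction 10.7.1.1 to subtract background and detrend each array, and deposited processed intensity on a linear scale. Version 10.3.1.1 stands in the submitters' processing notes. The value table held the same intensity at all 44397 spots of both arrays.

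From these, log2 intensity minus each array's 75th percentile over non-control spots was computed. Control spots and outlier spots (114 and 109) were left out, repeat spots averaged, and probes named through RefSeq accessions (assembly GRCm38.p6): 26410 of 39426 probes matched. A probe entered if both arrays had it well above background and unsaturated, and a gene is the mean of its probes. The error combines the software's spot errors. Signals of different probes are ranked or summarised as spot brightness, not as transcript amounts. The values of 1 member are not reported here.

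The members, lists and named genes (per complex the 4 highest and lowest, the brightest and dimmest, core subunits, isoforms, genes past their error or not above background; per list the 3 highest and lowest) were chosen with earlier results of these data known. Steps were tested on simulated data. Alternatives covered background correction, scaling, detection, probes and members. Software was limma 3.58.1 in R 4.3.3, and matplotlib 3.10.9, statsmodels 0.14.6, numpy 2.4.6 and pandas 2.3.3 in Python 3.11.15. Normexp (offset 50) used spot medians, and loess a span of 0.3.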

Additional observations from a re-analysis of the deposited data

How the results depend on the processing

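No difference has a replicate check, and the number of arrays limits the precision. Signals near background widened the scanner error of some genes named, such as Cox17 (0.35), Tnnt3 (0.36) and Atpaf1 (0.22). No paired analysis was possible because each group has 1 array. The alternative that would add members by a gene name column was not run, because the tables have no such column. A median was counted as moved when it shifted by more than 0.034, the median SD of repeat spots. Medians of all members (0.067 as reported) were 0.029 after loess, 0.145 without scaling and 0.023 relative to the brightest 10%; those 2 last settings, and the brightest 10% alone, were chosen after seeing the data. For complexes I, II, III, IV and V the medians were 0.037, 0.045, 0.032, -0.0065 and 0.010 after loess, 0.152, 0.160, 0.152, 0.102 and 0.124 without scaling, and 0.029, 0.038, 0.029, -0.021 and 0.0013 relative to the brightest 10%. Quantile normalization moved complexes II and III to 0.042 and 0.031, and normexp turned complex IV to -0.0013. Members higher by more than the scanner error (4 as reported) numbered 8 with median scaling and with spike-ins at 0, 23 without scaling, 2 with the brightest probe or without assembly factors and non-subunits, and 0 in the brightest 10% alone. Members lower by more than it (2 as reported) numbered 1 among genes brighter than the median gene and 0 among genes with several probes, without restricted isoforms or in the brightest 10% alone. Among the 25 members with several probes, 22 were higher. Lists whose direction turned were the medians of complex III assembly factors, to -0.0077 with no filter, the laxer flag or several probes and to -0.022 relative to the brightest 10%, carriers, to -0.023 with several probes, proximal tubule markers, to 0.00073 with median scaling and 0.056 without scaling, podocyte markers, to 0.0012 without scaling, brown fat, to -0.034 among brighter genes and -0.091 with several probes, and striated muscle, to 0.24 with no filter and 0.14 with the laxer flag; the cause was not tested. Of the summary values recomputed, 135 stayed within these limits, and of the values for single genes and other lists 1074 stayed, 366 moved by more and the 12 named above turned; a single gene within its scanner error was not counted as turned when it crossed 0.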

Other observations

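Cox7a1 and Cox8b, the heart, muscle and brown fat forms of complex IV subunits that the symbol rule leaves out, behaved differently from each other. Cox8b read 34.2 units in WT+STZ against 276 in TG+STZ, a difference of 2.93 ± 0.23 and 7.64-fold, while Cox7a1 read 11734 and 12596 units, a difference of 0.024 ± 0.20. Both genes rest on 1 probe. Cidea, a lipid droplet protein of brown fat, moved like Cox8b, from 49.9 to 393 units (2.90 ± 0.21), and Dio2, which activates thyroid hormone, went from 35.1 to 69.8 units (0.91 ± 0.23). Ucp1 was not well above background in WT+STZ at 3.63 units and read 274 in TG+STZ. Elovl3 was not above background on either array (2.38 and 2.18 units), and Ppargc1a, which encodes the coactivator PGC-1 alpha of mitochondrial biogenesis, stood at -0.091 ± 0.14. The summed signal of the 7 brown fat markers was 15686 and 17540 units, most of it from Cox7a1. Their part in the values of the ubiquitous subunits was not tested. Markers of white fat differed too: Cfd, which encodes adipsin, read 41.2 units in WT+STZ against 1225 in TG+STZ, a difference of 4.82 ± 0.22, and Retn, which encodes resistin, 28.9 against 218 (2.84 ± 0.24). Fabp4 stood at 0.34 ± 0.20. The summed signal of the 6 white fat markers was 11594 and 17028 units, most of it from Fabp4 (11503 and 15379 units).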
